A study of Zea mays with 12 samples.

Results

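The subject is the set of maize transcripts whose level in hybrid immature ears lay outside the range of both inbred parents on every array. Each of 12 arrays was scaled to the same median signal, and probe sets with a mean scaled signal of at least 50 over the 12 arrays were kept. A probe set entered the set when all 6 hybrid arrays lay above all 6 inbred arrays, or all 6 lay below them. Of 17621 maize probe sets, 11625 reached the minimum signal, and 63 met the rule: 14 above the inbreds (0.12% of those at the minimum signal) and 49 below (0.422%). The members were thus selected on the hybrid and inbred signals themselves, so those values are given as a description, with no test. Standard errors (SE) printed with hybrid minus inbred differences of members take no account of this selection and are not a test. A probe set is a group of short probes designed against 1 transcript or a family of similar transcripts, and probe sets rather than genes are counted throughout.

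Immature ears of the inbreds B73 and Mo17 and of the reciprocal hybrids B73xMo17 and Mo17xB73 were profiled on an Affymetrix maize array. For every genotype 3 biological replicates were hybridised, each a pool of 6 field-grown ears 3.7 to 5.4 mm long, with husks and silks removed. A value is therefore a mean over the cells of pooled whole ears, in which fewer cells of a type and less RNA per cell cannot be told apart. B73 and Mo17 are unrelated inbred lines of maize whose hybrids grow more vigorously than either parent.

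When a hybrid carries 1 allele from each parent and each allele keeps its parental output, its transcript level is expected between the parental levels. A level outside the parental range is called over- or underdominant expression, and the above and below sets are the array counterparts of those terms. The immature ear is a female inflorescence in which spikelet and floral meristems are being laid down. Genes of that programme were measured on the arrays. Mean signal reached 50 for 18 of 20 probe sets of MADS-box floral genes and for 14 of 15 of ear architecture genes. kn1, a homeobox gene of meristem maintenance, had a scaled signal of 1422 ± 369 in B73 and 2436 ± 90.6 in Mo17 (SD, n = 3 pools, as for every ± on a signal), and of 1835 ± 137 for B73xMo17 and 2126 ± 72.3 for Mo17xB73.

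The arrays had median deposited signals of 123.2 to 231 before scaling. B73 replicate 2 stood apart in its low signals: its 1st percentile was 3.90, against 0.455 to 0.647 on the other 11 arrays. Its 20th percentile was 0.125 of its median, against 0.0638 to 0.0927 elsewhere, and its 75th percentile was 2.91 times its median, against 3.17 to 3.47 on the other inbred arrays and 3.06 to 3.22 on the hybrid arrays. No array measure passed between hybrids and inbreds in an exact two-sided permutation test of 6 against 6 arrays, which can go no lower than p = 0.00216. The 3′ to 5′ signal ratio of the actin control, a sign of RNA integrity, was 1.68 ± 0.09 on hybrid arrays and 1.82 ± 0.18 on inbred arrays (exact permutation p = 0.136, adjusted p = 0.682 over 5 measures). That of GAPDH was 1.31 ± 0.06 and 1.38 ± 0.14 (exact permutation p = 0.286, adjusted p = 0.714).

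If the 12 arrays were interchangeable, the share of orderings that meets the rule in a given direction would give 12.6 of 11625 probe sets. The above count of 14 was close to that number, and the below count of 49 was higher. The arrays were not interchangeable, however: 41.9% of the 11625 differed between B73 and Mo17 at a limma adjusted p under 0.05. That number is therefore a reference and not the count that chance would give in these data. Because all probe sets share the same 12 arrays, the counts do not vary independently and carry no p-value. The balance between the directions moved with scaling. Scaling to the 75th percentile gave 31 above and 22 below, quantile normalization 26 and 44, and signals as deposited 3 and 9. Of the 14 and 49 probe sets, 12 and 18 were also separated under 75th percentile scaling, 11 and 31 after quantile normalization, and 3 and 2 with deposited signals.

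B73 replicate 2 limited the below count more than any other array. Without it 194 probe sets lay below (1.68% of 11567) and 23 above (0.199%). Leaving out any other array gave 61 to 92 below and 14 to 27 above. Any array left out relaxes the rule, and all 14 and all 49 remained in the sets each time. When B73 replicate 2 was added back, 25.3% of the 194 were still separated, against 53.3% to 80.3% for the other arrays added back in the same way. Whether the low end of its signal distribution contributed was not tested.

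Taken singly, each hybrid left the inbred range more often, as 3 arrays are separated more easily than 6. Of the 11625 probe sets, all 3 B73xMo17 arrays lay above all 6 inbred arrays for 50 and below them for 159. For Mo17xB73 the counts were 58 and 169. The reference of 12.6 is for 6 arrays against 6 and does not apply here. No reference was computed for 3 against 6, so these counts are a description only.

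The 14 probe sets above the inbreds differed from them by a median of 0.89 on the log2 scale (range 0.21 to 2.33), and in 5 the mean hybrid signal was at least 2-fold the mean inbred signal on that scale. Against the higher parent alone the hybrid mean was a median of 1.58-fold higher (1.15 to 5.88). The gap, the lowest hybrid array over the highest inbred array, had a median of 1.104 and ran from 1.03 to 1.56. It was at least 1.1 in 7 of the 14. Mean signals ran from 75.9 to 3572 with a median of 415, beside a median of 348 over all 11625 probe sets. No gene symbol was attached to any of the 14, so they are described by probe set identifier only.

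Zm.12634.1.A1_at had the widest gap. Its scaled signals were 497, 585 and 499 in B73 and 524, 591 and 505 in Mo17. In B73xMo17 they were 1210, 1099 and 1321, and in Mo17xB73 923.7, 1213 and 1175. The 6 inbred arrays lay close together, and every hybrid array was at least 1.56-fold above the highest of them. The hybrid mean was 2.14-fold that of the higher parent, Mo17.

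Zm.15899.4.A1_x_at showed the largest difference on the log2 scale, from a low inbred level. Signals were 19.0, 18.0 and 24.6 in B73 and 8.56, 24 and 34.0 in Mo17. They were 54.4, 47.6 and 93.2 for B73xMo17 and 317, 214 and 56.7 for Mo17xB73. A pair of Mo17xB73 pools stood far above the other hybrid pools, while the third lay among the B73xMo17 pools. The log2 difference between hybrids and inbreds was 2.25 ± 0.37 (SE) with signals below 11.9 set to that floor, and 0.61 with the floor at the 40th percentile, so its size depends on how low signals are treated.

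Zm.5300.1.A1_at differed between the parents as well. It had 64.4, 12 and 37.2 in B73 and 132, 180 and 196 in Mo17. The hybrids had 387, 308 and 269 for B73xMo17 and 287, 365 and 338 for Mo17xB73. Both hybrids stood at about the same level, 1.92-fold above Mo17 and further above B73. The log2 difference of hybrids minus inbreds was 2.175 and became 1.49 with the floor at the 40th percentile, so its size depends on how low signals are treated.

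Zm.4852.1.A1_at, Zm.10097.1.A1_at and Zm.1489.1.A1_at had the next widest gaps. Zm.4852.1.A1_at measured 644, 771 and 859 for B73, 510, 817 and 851 in Mo17, 1129, 1292 and 1446 for B73xMo17 and 1100, 1222 and 1154 for Mo17xB73. Here the hybrids overlapped each other and the parents overlapped each other. Zm.10097.1.A1_at measured 427, 468 and 390 in B73, 197, 319 and 380 in Mo17, 655, 554 and 613 for B73xMo17 and 953, 994 and 691 for Mo17xB73. All Mo17xB73 pools were above all B73xMo17 pools, and all B73 pools above all Mo17 pools. Zm.1489.1.A1_at measured 1888, 1796 and 1664 in B73, 777, 1653 and 1908 in Mo17, 2156, 2227 and 2507 for B73xMo17 and 2662, 2900 and 2651 for Mo17xB73. Mo17 replicate 1 was far below the other inbred pools.

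Mo17xB73 was further from the inbreds than B73xMo17 in 12 of the 14. The hybrid array nearest the inbreds was a B73xMo17 array in 12 of 14. Mo17xB73 replicate 2 was the highest array in 7, and Mo17 replicate 1 the lowest inbred array in 8. These tallies were not made over all 11625 probe sets, so they are not shown to be particular to the members. Zm.1920.1.A1_a_at and Zm.1920.2.A1_a_at share an identifier cluster and count as related measurements. In both, the Mo17xB73 mean was the highest and Mo17 replicate 1 the lowest array. Zm.1920.1.A1_a_at measured 466, 483 and 426 in B73, 176, 293 and 330 in Mo17, 519, 567 and 533 for B73xMo17 and 827, 899 and 582 for Mo17xB73. In Zm.1920.2.A1_a_at the genotype means were 597 ± 67.8, 341 ± 74.2, 727 ± 57.3 and 1119 ± 266 in the same order.

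Of the other 6 above, Zm.860.1.A1_at had 98.4 ± 13.8 in B73, 53.3 ± 11.3 in Mo17, 143 ± 24.3 for B73xMo17 and 151 ± 11.7 for Mo17xB73. Zm.4034.1.A1_at had 164 ± 12.8, 166 ± 5.35, 193 ± 1.36 and 235 ± 29.7. Both parents were alike there, and the mean over both hybrids was 1.29-fold that of the higher parent, Mo17. Zm.3633.4.A1_at had 3089 ± 208, 2753 ± 807, 3821 ± 197 and 4623 ± 270. Zm.5676.1.S1_at had 200 ± 7.98, 199 ± 8.11, 228 ± 12.1 and 232 ± 11.5, a separation of small size with narrow spread. The mean over both hybrids was 1.82-fold that of the higher parent in Zm.19110.1.A1_at and 1.64-fold in ZmAffx.442.1.A1_at.

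The 49 below were separated by less. Their log2 differences had a median of -0.35 (range -1.27 to -0.15) beside -0.03 over all 11625 probe sets, and only Zm.11758.1.A1_at reached 2-fold. The lower parent was a median of 1.22-fold above the hybrid mean (1.098 to 1.63). The gap, here the lowest inbred array over the highest hybrid array, had a median of 1.04 and ran from 1.00 to 1.24. It was at least 1.1 in 8 of the 49. Their mean signals ran from 53.4 to 616 with a median of 207.

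Of the 63 probe sets, 3 matched a gene symbol, all of them below the inbreds, and 60 did not. Over the 11625, 8.54% matched. The named genes were ACO20, an oxidase that makes the plant hormone ethylene from its precursor 1-aminocyclopropane-1-carboxylate, aprl1, which by its name is related to adenosine 5′-phosphosulfate reductase of sulfate assimilation, and gsh1, glutamate-cysteine ligase, which starts the synthesis of the thiol antioxidant glutathione.

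ACO20 (Zm.18900.1.S1_at) measured 630, 541 and 584 in B73 and 552, 623 and 664 in Mo17. It measured 417, 468 and 413 for B73xMo17 and 365, 436 and 453 for Mo17xB73. Parents overlapped, reciprocal hybrids overlapped, and the lowest inbred pool was 1.16-fold above the highest hybrid pool. The log2 difference of hybrids minus inbreds was -0.49 ± 0.08 (SE).

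aprl1 (Zm.12014.1.A1_at) measured 815, 627 and 711 in B73, 555, 610 and 809 in Mo17, 527, 530 and 440 for B73xMo17 and 255, 432 and 264 for Mo17xB73. All 3 Mo17xB73 pools were below all 3 B73xMo17 pools, and the log2 difference of hybrids minus inbreds was -0.80 ± 0.13 (SE). The gap was 1.048, set by Mo17 replicate 1 and B73xMo17 replicate 2.

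gsh1 (Zm.9043.1.S1_at) measured 575, 542 and 597 in B73, 526, 585 and 582 in Mo17, 522, 523 and 498 for B73xMo17 and 489, 459 and 518 for Mo17xB73. The log2 difference was small, -0.18 ± 0.06 (SE), and the gap of 1.01 placed it near the edge of the rule.

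Other genes of these pathways, picked after the values had been seen and so given without a test, stayed within the inbred range or overlapped it. The sulfite reductase gene sir differed in sign between its probe sets, with log2 differences of -0.17, 0.51 and 0.28. The serine acetyltransferase sat3 had 0.03, cys2 of cysteine synthesis -0.09, and the glutathione synthetase gsh2 -0.12. aprl3, named alike to aprl1, had -0.11 and -0.02. The ethylene receptor gene etr2 had 0.25, and ACO31 did not reach the minimum signal.

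Among unnamed probe sets below, Zm.11758.1.A1_at had the widest gap and the largest difference. It measured 175, 123 and 127 in B73, 62.8, 71.3 and 66.3 in Mo17, 42.4, 39.6 and 50.2 for B73xMo17 and 50.5, 33.1 and 29.4 for Mo17xB73. B73 was more than 1.5-fold above Mo17, and the hybrids lay below Mo17 with a gap of 1.24. Its log2 difference of -1.27 ± 0.16 (SE) became -0.41 with the floor at the 40th percentile.

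Zm.12118.1.A1_at measured 449, 378 and 387 in B73, 394, 357 and 364 in Mo17, 305, 222 and 213 for B73xMo17 and 290, 211 and 128 for Mo17xB73. The parents were alike and the hybrid pools ran over a wide range below them. Zm.14362.1.A1_at measured 198, 190 and 209 in B73, 377, 399 and 241 in Mo17, 119, 156 and 166 for B73xMo17 and 155, 156 and 112 for Mo17xB73. Here B73 was the lower parent and the hybrids lay below it.

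Zm.5588.1.A1_at, Zm.15895.1.A1_at and Zm.3818.1.S1_at complete the widest gaps. Zm.5588.1.A1_at measured 159, 157 and 166 in B73, 169, 209 and 160 in Mo17, 136, 109 and 132 for B73xMo17 and 128, 116 and 136 for Mo17xB73. Zm.15895.1.A1_at measured 236, 221 and 260, then 223, 257 and 248, then 191, 179 and 199, then 175, 177 and 166 in the same order of genotypes. In both, the parents overlapped; the hybrids overlapped in the first, and all Mo17xB73 pools lay below all B73xMo17 pools in the second. Zm.3818.1.S1_at measured 77.7, 87.1 and 77.4, then 154, 74.1 and 90.7, then 54.0, 67.2 and 65.8, then 60.9, 60.8 and 63.6. Mo17 replicate 1 was the high array there. In Zm.11970.1.A1_at the parental means were 392 ± 10 and 395 ± 2.44 and the hybrid means 331 ± 10.9 and 333 ± 15.4, a small shift with almost no difference within either class.

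The remaining members below were mostly small shifts over a common parental level. ZmAffx.806.1.S1_at had 480 ± 35.9 in B73, 400 ± 21.6 in Mo17, 249 ± 64.0 for B73xMo17 and 263 ± 98.4 for Mo17xB73, with wide spread among the hybrid pools. Zm.6226.1.A1_at had 66.9 ± 15.2, 80 ± 9.41, 44.4 ± 8.48 and 47.8 ± 9.93 in that order, and Zm.1353.1.A1_at had 95.3 ± 9.51, 95.0 ± 16.6, 61.2 ± 7.09 and 65.0 ± 16.1. In these the lower parent was at least 1.45-fold above the hybrid mean.

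The reverse was seen in Zm.12504.1.S1_at, with 198 ± 5.56, 196 ± 4.42, 179 ± 3.56 and 176 ± 5.46, and in Zm.11765.1.A1_at, with 476 ± 11.8, 475 ± 20.8, 432 ± 3.53 and 416 ± 8.24. Their log2 differences of -0.15 and -0.17 were among the smallest, and the spread within each genotype was small as well. In ZmAffx.1316.1.S1_at B73xMo17 was the lower hybrid, at 79.6 ± 5.13, 86.7 ± 10.7, 50 ± 5.89 and 64.3 ± 5.50. In Zm.9571.1.A1_at Mo17xB73 was the lower hybrid, at 156 ± 29.9, 157 ± 21.4, 121 ± 5.09 and 99.5 ± 5.83.

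Mo17xB73 was further from the inbreds than B73xMo17 in 34 of the 49. Mo17xB73 replicate 3 was the lowest array in 20 of the 49. Neither tally was made over all 11625 probe sets, so neither is shown to be particular to the 49. The inbred array nearest the hybrids was B73 replicate 2 in 11, Mo17 replicate 2 in 10, Mo17 replicate 1 in 9, B73 replicate 1 in 8, Mo17 replicate 3 in 7 and B73 replicate 3 in 4. This tally covers only probe sets that passed with every array and does not show which array kept others out. The B73 mean was above the Mo17 mean in 24 and below it in 25.

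The members nearest each edge show how thin it was. On the above side the narrowest gaps inside the rule were 1.03 in Zm.1920.2.A1_a_at and 1.03 in ZmAffx.442.1.A1_at. Just outside lay Zm.3365.1.A1_at with 0.995 and Zm.188.1.S1_at with 0.993. On the below side Zm.7860.1.A1_at and Zm.6467.1.A1_at were inside at 1.0004 and 1.001, and Zm.13477.1.S1_at and Zm.16367.2.S1_at were outside at 0.998 each. For the minimum signal, Zm.15899.4.A1_x_at with 75.9 and Zm.19110.1.A1_at with 111 were the dimmest above, and Zm.13131.1.S1_at with 34.0 and Zm.8561.1.A1_at with 6.88 were separated but too dim. Below, Zm.18208.1.A1_at with 53.4 and Zm.10826.1.S1_at with 57.8 were kept, and Zm.15632.1.S1_at with 41.7 and Zm.15964.1.A1_at with 41.6 were not.

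The array carries further probe sets whose identifiers share the cluster number of a member, and these give a second reading of related transcripts. Members of a cluster can share sequence and are not replicates. On the above side 8 of 14 members had such relatives. The 23 relatives at the minimum signal that were not members lay in 5 clusters. Of these, 12 had a positive hybrid minus inbred difference and 17 lay within 0.2 of 0 on the log2 scale.

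For the probe set with the widest gap, the relatives did not move with it. The 9 others of cluster Zm.12634 had log2 differences of -0.33 to 0.14, with mean signals from 55.8 to 4935. Zm.12634.1.A1_x_at had 2826 ± 211 in B73, 3903 ± 99.8 in Mo17, 3433 ± 238 for B73xMo17 and 3313 ± 426 for Mo17xB73, between the parents.

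In cluster Zm.3633, the 9 others ran from -0.63 to 0.10, all below the member's 0.55. The lowest was glu1 (Zm.3633.1.A1_at), a beta-glucosidase that releases benzoxazinoid defence compounds from their glucosides. It had 675 ± 249 in B73, 257 ± 26.6 in Mo17, 291 ± 35.4 for B73xMo17 and 241 ± 34.5 for Mo17xB73. Its difference was opposite in sign to that of the unnamed member of its own cluster. The hybrid arrays of glu1 ran from 203 to 314 and the inbred arrays from 234 to 961. They overlapped near the Mo17 level, with B73 high.

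Cluster Zm.15899 behaved otherwise. Its 5 other probe sets, 3 of them at the minimum signal, had positive differences of 1.28 to 2.33. Zm.15899.2.A1_x_at had 185 ± 5.70 in B73, 87.4 ± 37.6 in Mo17, 198 ± 38.8 for B73xMo17 and 647 ± 370 for Mo17xB73. Mo17xB73 spread widely here too. In cluster Zm.1920 both members and Zm.1920.2.A1_x_at (0.82) were positive.

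On the below side 13 of 49 members had relatives. Of 11 non-member relatives at the minimum signal in 7 clusters, 10 had a negative difference and 7 lay within 0.2 of 0. The median over all 11625 probe sets was itself -0.03, and 5 of the 11 relatives lay in cluster Zm.15678. Zm.2193.1.A2_at had -0.53 beside -0.69 for the member Zm.2193.1.A1_at. Zm.18208.1.A1_s_at had -0.30 beside -0.46, and Zm.3868.1.A1_at -0.24 beside -0.34. The 5 relatives in cluster Zm.15678 ran from -0.24 to 0.01 beside -0.38.

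The comparison of B73 with Mo17 and that of the reciprocal hybrids with each other were not the contrast of the rule, though the rule used the same arrays. Both were tested in a limma fit over all 11625 probe sets, with Benjamini-Hochberg adjustment over all of them. The rule still favours probe sets whose parents lie close together, since distant parents widen the range that the hybrids must leave. The spread among the hybrid arrays entered the rule as well. Adjusted p-values of members therefore come after a selection that they do not take into account. Of the 63, 8 differed between B73 and Mo17 at an adjusted p under 0.05, 5 of the 14 above and 3 of the 49 below. Over all probe sets 4866 of 11625 (41.9%) did.

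The share that passed was 6.12% below and 35.7% above. The parental difference had a median size of 0.09 on the log2 scale in the 49 and of 0.28 in the 14, against 0.29 over all probe sets. It was under 1.5-fold in 47 of 49 and 10 of 14, and in 75.9% of all.

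Of the 5 above that passed, 4 were higher in B73 and 1 in Mo17. Zm.860.1.A1_at was higher in B73 by 0.90 ± 0.18 on the log2 scale (SE, limma adjusted p = 0.00101), Zm.1920.1.A1_a_at by 0.83 ± 0.20 (limma adjusted p = 0.00364), Zm.1920.2.A1_a_at by 0.82 ± 0.18 (limma adjusted p = 0.00221) and Zm.10097.1.A1_at by 0.57 ± 0.20 (limma adjusted p = 0.0315). Zm.5300.1.A1_at was higher in Mo17, with a B73 minus Mo17 difference of -2.45 ± 0.41 (limma adjusted p = 0.000232), the largest parental difference in the set. Below the inbreds, Zm.11758.1.A1_at was higher in B73 by 1.07 ± 0.22 (limma adjusted p = 0.00128). Zm.14362.1.A1_at was lower in B73, at -0.74 ± 0.19 (limma adjusted p = 0.00645), as was Zm.2193.1.A1_at, at -0.55 ± 0.19 (limma adjusted p = 0.0295). ACO20, aprl1 and gsh1 did not pass, with parental differences of -0.07 ± 0.11, 0.13 ± 0.19 and 0.02 ± 0.09.

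The reciprocal hybrids did not differ at an adjusted p under 0.05 in any of the 63, nor in any of the 11625 (0%) by limma. At an unadjusted p under 0.05 in limma there were 231 of 11625, of which 7 were among the 63. The 231 are fewer than this threshold would admit on average if no probe set differed. With signals as deposited limma called 7 of 11735, none of them among the 63. With 1 array left out, 1 to 7 of the 14 were at an unadjusted p under 0.05. With all 12 arrays the 5 of the 14 at such a p were all higher in Mo17xB73, the related Zm.1920.1.A1_a_at and Zm.1920.2.A1_a_at among them. The B73xMo17 minus Mo17xB73 differences were -1.33 ± 0.52 in Zm.15899.4.A1_x_at, -0.59 in Zm.1920.2.A1_a_at, -0.52 in Zm.10097.1.A1_at, -0.49 in Zm.1920.1.A1_a_at and -0.28 in Zm.4034.1.A1_at, each with an adjusted p of 1.00. On the below side aprl1 was higher in B73xMo17 by 0.69 ± 0.19 (limma unadjusted p = 0.00244, adjusted p = 1.00), and ZmAffx.1316.1.S1_at was lower there by 0.37. The median size of the reciprocal difference was 0.27 in the 14, 0.06 in the 49 and 0.08 over all probe sets.

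Gene lists matched by symbol give the surroundings of the set. In the limma contrast of the mean of both hybrids with the mean of both inbreds, 726 of 11625 probe sets passed (6.25%), 601 higher (5.17%) and 125 lower (1.08%). No probe set of any list met the rule. The shares over all 11625 were only 0.12% above and 0.422% below, and the lists are small, so this is not a result about these genes. The limma contrast on the log2 scale also calls genes whose hybrids lay between 2 distant parents. An example is his2b5, a histone H2B gene, with 4578 ± 895 in B73, 29.6 ± 3.18 in Mo17, 4327 ± 610 for B73xMo17 and 4229 ± 52.3 for Mo17xB73 (difference 3.55 ± 0.10, limma adjusted p = 7.84e-12). It was the only call among 21 cell cycle and histone probe sets, where signals as deposited gave 2.

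Heat shock genes, which encode chaperones, had 2 of 12 probe sets lower, none higher and a median of -0.39. These were hsp26 at -1.93 ± 0.50 (limma adjusted p = 0.0291) and HSP60-1 at -0.31 ± 0.09 (limma adjusted p = 0.0495). With signals as deposited 6 of 12 were lower, and under 75th percentile scaling 1 was. hsp26 signals ran from 1.46 to 64.0 in hybrids and from 18.0 to 318 in inbreds, so the groups overlapped. Of 6 tested defence and benzoxazinoid probe sets 2 were lower, glu1 at -0.63 ± 0.14 (limma adjusted p = 0.0107) and bx6 of benzoxazinoid synthesis at -0.33 ± 0.07 (limma adjusted p = 0.0105). The glu1 hybrids overlapped the inbred arrays and lay near the Mo17 level, as given above. With signals as deposited 1 probe set of this list was lower. The bx6 probe set narrowly missed the rule, with hybrids at 284 to 313 and inbreds at 312 to 461.

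Of 30 redox and fermentation probe sets 2 were higher, both of the glutathione transferase gene gst13, and 1 lower, gst5 at -0.72 ± 0.12 (limma adjusted p = 0.00129). With signals as deposited 1 was higher, and under 75th percentile scaling 3 were. The gst13 probe sets disagreed over the parents: Zm.17475.1.S1_x_at had 16.2 ± 10.9 in B73 and 311 ± 61.5 in Mo17, and Zm.543.1.S1_at had 425 ± 103 and 136 ± 20.5. Among 20 hormone probe sets abp4 and RR11 were higher, RR11, a response regulator of cytokinin signalling, at 0.75 ± 0.18 (limma adjusted p = 0.0223) with hybrids at 50.2 to 124 and inbreds at 31.1 to 57.0. Neither call was made with signals as deposited.

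Of 18 MADS-box floral probe sets zag2 and MADS12 were higher, and of 14 ear architecture probe sets yab9 was. With signals as deposited no probe set of either list was called. zag2 had 172 ± 12.6 in B73, 396 ± 44.9 in Mo17, 376 ± 19.4 for B73xMo17 and 361 ± 22.3 for Mo17xB73, inside the parental range. Translation had 2 of 26 higher, eif7 and eif3, but 5 higher under 75th percentile scaling, 1 higher and 1 lower with signals as deposited, and 2 higher and 2 lower without B73 replicate 2. Starch and sucrose had 1 of 13 lower, ivr2 at -0.62 ± 0.17 (limma adjusted p = 0.0412), a call lost without B73 replicate 2 and under 75th percentile scaling. Aquaporins had 1 of 18 lower, PIP1-3, none with signals as deposited and 3 without B73 replicate 2. Chromatin genes had none of 44 (2 at an unadjusted p under 0.05 in limma), and 1 higher under 75th percentile scaling.

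The ranges of summed markers of other tissues that an ear sample could hold overlapped between hybrid and inbred arrays. None of 16 tested leaf or husk probe sets passed in limma (6 at an unadjusted p under 0.05), though 3 were higher without B73 replicate 2. The summed signal of all 21 ran from 4366 to 5181 on hybrid arrays and from 3814 to 6158 on inbred arrays. Of 8 pollen or anther probe sets, 2 reached the minimum signal and 3 were at the floor on all arrays. The summed signal of the 8 ran from 5207 to 6016 on hybrid arrays and from 4768 to 6332 on inbred arrays. That of 18 endosperm or kernel probe sets, 6 at the floor on all arrays, ran from 808 to 1022 and from 747 to 869. Its median was 887 on hybrid arrays, above every inbred array, and 794 on inbred arrays. The leaf or husk and the pollen or anther sums had the lower median on hybrid arrays. GLB1, a globulin storage protein gene of the endosperm or kernel list, was higher in hybrids at 0.66 ± 0.14 (limma adjusted p = 0.00672). It was the only call among 5 tested probe sets of that list (3 at an unadjusted p under 0.05 in limma). The part of these tissues in the 63 probe sets was not tested.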

How the data were processed

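Immature ear RNA of 4 maize genotypes, 3 pools each, was hybridised to 12 Affymetrix maize arrays. The authors deposited a linear intensity per probe set and array, made with MAS5 per the submitters' processing notes; neither its version nor its scaling target is given in the sources used here. From these, each array was scaled to a common median (155) over 17621 probe sets, leaving out 113 AFFX controls. limma 3.58.1 (R 4.3.3) was fitted to log2 signals with a floor of 11.9 (the median of the arrays' 20th percentiles), a mean per genotype, a trended prior and Benjamini-Hochberg adjustment over 11625 probe sets with mean signal of at least 50. The fit was tested on simulated data. A count of 12 arrays limits the precision, and p-values measure the spread between pools. Signals of different probe sets are not on a common scale, so differences were computed within a probe set. The summed tissue markers are the exception, and the brighter probe sets weigh most in those sums. Whether its probes match both parental alleles equally was not tested.

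The members, lists and tests were chosen with earlier results of these data known. Text names every member with 1 gene symbol, the 6 per direction with the widest gap, the 2 per direction with the largest log2 difference, and the nearest to each threshold; others were chosen after their values were seen. Symbols came from the platform annotation (1452 probe sets with 1 gene, 1 with several, the rest unnamed here), with 1377 matched to RefSeq names. Lists were matched by symbol. Alternatives covered scaling, minimum signal, floor, filter, moderation, replicate block and each array left out. Sequences were not used here, so a planned promoter motif search was not run.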

Additional observations from a re-analysis of the deposited data

How the results depend on the processing

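The count above the inbreds moved from 14 to 3 with signals as deposited, 26 after quantile normalization and 31 under 75th percentile scaling, and the count below from 49 to 9 with deposited signals and 22 under 75th percentile scaling; the cause was not tested. Minimum signals of 25, 100 or none gave 15, 13 and 16 above and 53, 38 and 58 below. Leaving out each array gave 14 to 27 above and 61 to 194 below, the highest without B73 replicate 2; fewer arrays relax the rule by construction. Members passing B73 against Mo17 ranged from 6 to 10 without each array and from 7 to 10 under the other settings, and none passed between the reciprocal hybrids under any. In the limma contrast of hybrids with inbreds, the 601 higher and 125 lower became 359 and 52 with deposited signals and 336 and 307 with the floor at the 40th percentile, and 82 were lower under 75th percentile scaling (added after the data were seen); the cause was not tested. Without each array it gave 510 to 621 higher and 66 to 283 lower: 283 lower without B73 replicate 2, 80 without B73 replicate 3, 66 without B73xMo17 replicate 2 and 79 without B73xMo17 replicate 3. Same-numbered pools tended to deviate together, though not in every pair. Correlations of deviations ran from -0.11 to 0.42 in 18 same-numbered pairs (median 0.14, 10 over 0.1). In 36 differently numbered pairs they ran from -0.43 to 0.21 (median -0.04, 8 over 0.1). The labels do not say what pools of the same number share, and the main fit did not pair them. With the replicate block the counts were 8, 0, 625 higher and 154 lower. The 15 named members kept their sign in 315 of 315 alternative values. For most settings the rule fixed this beforehand. A probe set separated on every array cannot change sign when arrays are left out or the filter or moderation is changed. The floor at the 40th percentile moved 4 of these members beyond the replicate SD. Signal over background limits the dim members.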
